A study of Mus musculus with 2 samples.

Results

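Signals that reach neural crest derivatives and their surroundings were followed through single cells of the embryonic mouse eye. The genes were 4 receptors (Kit, Ednrb, Ednra and Erbb3) and 4 ligands (Kitl, Edn1, Edn3 and Nrg1). They were taken by name from the gene list of the count tables, and all 8 of them were found among its 31053 genes. The rule used no measured value, although earlier results of these data were known. Their raw unique molecular identifiers (UMIs, counts of captured transcripts) were summed per cell class and library. Single cells came from e13.5 eye cups, from which cornea, lens and optic nerve had been taken off. The control library held 3 pooled samples of genotype Myrf fl/fl and the mutant library 3 pooled samples of genotype Rx>cre Myrf fl/fl. Both genotypes thus carried the floxed Myrf alleles, and the mutant also carried a transgene in which Rx regulatory sequence drives Cre recombinase in the early eye field. Retina and pigment epithelium descend from the eye field, whereas melanocytes, glia, periocular mesenchyme, vessels and blood do not. Because each genotype was 1 library of pooled samples, there was no replicate spread and no test was possible. Every interval below is a 95% interval for counting error only. Where a gene had 0 UMIs, the level that 3 counts would give is named as what that count allows, which is a set limit and lies below the upper end of the 95% interval.

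KIT is a receptor tyrosine kinase that binds stem cell factor, the product of Kitl, and is known for the survival and migration of melanoblasts, mast cells and blood progenitors. Endothelins are short peptides cut from longer precursors by endothelin-converting enzymes. EDN3 acts through the G protein-coupled receptor EDNRB on neural crest cells that will form melanocytes and glia, and EDN1 acts mostly through EDNRA in craniofacial and vascular mesenchyme. Neuregulin 1, often presented on axons, binds ERBB3, which has weak kinase activity of its own, signals with ERBB2 and is needed by Schwann cell precursors. In the eye, the pigmented cells of choroid and iris stroma come from the neural crest, and those of the retinal pigment epithelium (RPE) come from the optic cup.

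The control library had 6039 barcodes with 63483835 UMIs and the mutant library 6754 barcodes with 75228861 UMIs, of which 5468 and 6300 cells were kept. They formed 30 clusters, 25 of which were named by their markers, written below with "-like". The 5 clusters left without a name held 20.1% of control and 18.3% of mutant cells, and the thresholds for naming were chosen with the clusters in view. Of the named classes, 14 had at least 20 cells in each library and were used. The libraries shared 67 kept barcodes, of which 57 lay in unnamed cluster 23, whose cells were shallow. No class used held more than 4 of the shared barcodes in either library, and melanocyte-like, Schwann or neural crest-like and muscle-like cells held 0. Myrf in RPE-like cells, the check of the labels, stood at 155 UMIs or 74.0 CPM in the control and at 30 UMIs or 20.1 CPM in the mutant library, where CPM is the UMIs of a gene per 1000000 UMIs of the class. Red blood cell RNA in other classes also differed between the libraries. Haemoglobin and other red blood cell markers summed to 459 CPM in retinal progenitor-like cells of the control and 3131 CPM in those of the mutant library. Red blood cell-like cells served as background for the 8 genes, and no gene exceeded 0.947 CPM there in either library, at a median depth of 22476.5 UMIs in control and 22723.5 in mutant cells.

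The melanocyte-like and Schwann or neural crest-like classes carry much of what follows and were small. Melanocyte-like cells numbered 43 and 33 in the control and mutant libraries. Pax3 and Dct, 2 of their 8 markers, were highest there in both libraries, whereas Mlana, Pmel, Tyr and Gpnmb were highest in RPE-like cells, Sox10 was highest in Schwann or neural crest-like cells, and Tyrp1 had 0 UMIs in the melanocyte-like cells of both libraries. Schwann or neural crest-like cells numbered 22 and 38, and all 8 of their markers were highest there in both libraries.

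Promoter sequence in the RefSeq table for GRCm38.p6 was found for 6 of the 8 genes; Erbb3 and Nrg1 had no entry. In each, the 250 bases before the start that RefSeq gives were searched on both strands for 3 short motifs of factors active in pigment cells, neural crest or mesenchyme. These were the E-box (CANNTG), a SOX motif (ACAANG) and an AP-2 motif (GCCNNNGGC), which matched 66.0%, 36.6% and 13.6% of 27025 promoters of the same length. Kit, which was highest in melanocyte-like cells, and Ednrb, which was highest in Schwann or neural crest-like and then melanocyte-like cells, each held 1 AP-2 match, starting 134 and 195 bases before the start. Edn3, the ligand of EDNRB, held 2 E-boxes, starting 136 and 77 bases before it. Ednra held 1 E-box at 214 bases, Kitl and Edn1 held no match, and none of the 6 held the SOX motif. Of the 250 bases searched for Kitl, 191 lay from the start of an annotated exon onward. RefSeq gave 2 windows for Kit, of which the first listed was used. The windows of Kit, Ednrb and Edn3 are shown because Edn3 and Ednrb are a ligand and its receptor, and Kit and Ednrb led the melanocyte-like cells. The Kit window, chr5:75574737-75574915 on the plus strand, was cut where an annotated exon begins. The Ednrb window was chr14:103843702-103843951 on the minus strand, in an intron of a longer annotated transcript, and the Edn3 window was chr2:174760369-174760618 on the plus strand. Capitals mark the matches, which are letters in a window and not measured sites, and none of the matches overlapped.
Kit: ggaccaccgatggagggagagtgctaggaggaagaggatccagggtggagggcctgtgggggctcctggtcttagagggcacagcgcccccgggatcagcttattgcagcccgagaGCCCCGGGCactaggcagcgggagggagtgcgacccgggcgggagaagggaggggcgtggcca
Ednrb: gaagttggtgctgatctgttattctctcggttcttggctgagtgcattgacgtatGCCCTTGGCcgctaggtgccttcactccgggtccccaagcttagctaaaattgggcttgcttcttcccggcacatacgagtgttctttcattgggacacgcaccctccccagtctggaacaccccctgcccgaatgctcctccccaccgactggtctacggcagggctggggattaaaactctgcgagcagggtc
Edn3: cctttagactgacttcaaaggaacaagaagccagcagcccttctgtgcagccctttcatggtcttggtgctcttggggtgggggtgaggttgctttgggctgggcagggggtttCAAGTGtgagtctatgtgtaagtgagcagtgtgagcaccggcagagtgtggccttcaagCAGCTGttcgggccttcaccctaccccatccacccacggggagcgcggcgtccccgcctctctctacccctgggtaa

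Kit (chromosome 5, 75574916 to 75656722, plus strand) was highest in melanocyte-like cells of both libraries. The control library held 149 UMIs, 173 CPM (146 to 203), in 34 of 43 cells, and the mutant library held 83 UMIs, 127 CPM (101 to 157), in 23 of 33 cells. A cell had between 0 and 20 UMIs with a median of 2 in the control, and between 0 and 12 with a median of 2 in the mutant library. No other class reached these intervals. The log2 ratio of mutant over control, computed after adding 1 UMI to the sum of each library, was -0.44 (-0.85 to -0.05), so the level was lower in the mutant library by more than counting error. It was -1.03 when CPM was averaged over cells, which ranged in depth from 654 to 48293 UMIs in the control library, and -0.31 (-0.74 to 0.09) with a mitochondrial limit of 5%, where the interval holds 0. Of the markers of the class, Pax3, Sox10, Mlana, Pmel, Dct and Gpnmb also had a lower CPM in the mutant library. Sox10, for one, stood at 342 CPM in the control and 260 CPM in the mutant library. Tyr was higher, at 163 and 205 CPM, and Tyrp1 had 0 UMIs. The part of such a shift of the class in the Kit difference was not tested. Thinned to 3000 UMIs, 15 of 36 control cells (41.7%, 25.5% to 59.2%) and 6 of 25 mutant cells (24%, 9.36% to 45.1%) still had a Kit UMI. Thinned to 6000 UMIs, 15 of 34 control cells (44.1%, 27.2% to 62.1%) and 15 of 25 mutant cells (60%, 38.7% to 78.9%) had one, so the share of cells gave no order of the libraries. Red blood cell-like cells of similar depth, thinned to 3000 UMIs, had 0 of 178 and 1 of 413.

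Macrophage-like cells came next, with 92 UMIs, 51.9 CPM (41.8 to 63.6) in the control and 59 UMIs, 33.2 CPM (25.3 to 42.8) in the mutant library. Nearly all of this lay in a handful of cells that carried at least 2 of 6 mast cell markers (Cpa3, Mcpt4, Tpsb2, Cma1, Ms4a2 and Fcer1a). The 7 such control cells held 87 UMIs, 306 CPM (245 to 377), and the 6 such mutant cells held 56 UMIs, 181 CPM (137 to 235), with a Kit UMI in all 7 and all 6. The other 116 control and 130 mutant cells held 5 and 3 UMIs, 3.36 CPM (1.09 to 7.84) and 2.04 CPM (0.422 to 5.97). Kit is a defining receptor of mast cells, and no cluster of these data was named for them. The mast cell markers themselves, 5 of 6 of which were detected, summed to 1665 CPM in control and 830 CPM in mutant macrophage-like cells, and their part in the Kit difference was not tested. The log2 ratio for the whole class was -0.64 (-1.14 to -0.16), and 31.0% of the UMIs of the control cells with mast cell markers came from 1 cell.

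Endothelial-like cells, which line vessels, held 30 UMIs, 16.6 CPM (11.2 to 23.8) of Kit in the control and 23 UMIs, 12.8 CPM (8.10 to 19.2) in the mutant library. Of the 19 endothelial-like cells with a Kit UMI in each library, 11 control and 13 mutant cells also had an Ednrb UMI. Neural retina held Kit at a low level. In retinal ganglion-like cells it stood at 6.63 CPM (3.93 to 10.5) and 8.74 CPM (5.85 to 12.6), and in retinal progenitor-like cells at 4.24 CPM (3.37 to 5.26) and 5.03 CPM (4.08 to 6.15), in the control and mutant library. These intervals lay above the 0.473 CPM (0.0573 to 1.71) and 0.390 CPM (0.106 to 0.999) of red blood cell-like cells. Within the progenitors, cluster 20, led by mitotic genes such as Ccnb2 and Cenpa, held 3.56 CPM (1.43 to 7.33) in the control and 9.76 CPM (5.68 to 15.6) in the mutant library, on 7 UMIs and 17 UMIs. The other 4 progenitor clusters had values between 1.44 CPM and 4.84 CPM over both libraries, except 5.16 CPM and 5.27 CPM in cluster 2, which was led by Vax2os and Aldh1a1. The remaining classes, without RPE-like cells, lay at or below 3.92 CPM.

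RPE-like cells, the pigmented cells of optic cup origin, held 14 UMIs, 6.68 CPM (3.65 to 11.2) in the control and 8 UMIs, 5.35 CPM (2.31 to 10.5) in the mutant library. Their log2 ratio was -0.25 (-1.78 to 1.03), and these counts could not show a difference. The 14 control cells with a Kit UMI had a median depth of 15979.5 UMIs against 3147 in the 242 without one. Of these 14 cells, 12 carried Otx2, Rlbp1 or Ttr and 2 carried Sox10 or Pax3, whereas of the 8 mutant cells 6 and 0 did. Sox10 or Pax3 was also found in 11 of the 242 control cells without Kit. The paper reports Sox10 in control RPE from e13.5 and its loss in the mutant RPE, so Sox10 does not mark neural crest cells alone here. After thinning to 3000 UMIs, Kit was found in 0 of 133 control cells (0% to 2.74%) and in 1 of 80 mutant cells (0.0316% to 6.77%). In Schwann or neural crest-like cells Kit had 0 UMIs in both libraries, which allows up to 9.91 CPM and 5.30 CPM at 3 counts.

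Kitl (chromosome 10, 100015630 to 100100416, plus strand), the KIT ligand, was spread over several classes. Schwann or neural crest-like cells held 15 UMIs, 49.6 CPM (27.7 to 81.7) in the control and 30 UMIs, 53.0 CPM (35.8 to 75.7) in the mutant library. Periocular mesenchyme-like cells, the stroma around the eye, held 766 UMIs, 43.6 CPM (40.6 to 46.8) and 821 UMIs, 38.7 CPM (36.1 to 41.4), and endothelial-like cells 61 UMIs, 33.8 CPM (25.9 to 43.5) and 69 UMIs, 38.3 CPM (29.8 to 48.5). The intervals of these 3 classes overlapped from each class to the next in both libraries, so their order is not settled. By number, periocular mesenchyme-like cells held 60.1% of all Kitl UMIs of the control and 65.3% of those of the mutant library, with 23.4% and 25.5% of the cells. Between libraries the log2 ratio was -0.17 (-0.32 to -0.03) in mesenchyme, 0.18 (-0.34 to 0.70) in endothelium and 0.05 (-0.84 to 1.10) in Schwann or neural crest-like cells.

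Among the named classes of the neural retina, Kitl was lower in progenitors than in the neurogenic precursors and ganglion cells. Retinal progenitor-like cells held 2.84 CPM (2.14 to 3.70) and 1.36 CPM (0.891 to 2.00), neurogenic retinal precursor-like cells 12.3 CPM (7.80 to 18.5) and 7.36 CPM (4.12 to 12.1), and retinal ganglion-like cells 15.8 CPM (11.5 to 21.3) and 15.1 CPM (11.2 to 19.9), in the control and mutant library. The progenitor intervals lay below those of both other classes, whose intervals overlapped. Unnamed cluster 13, scored almost alike for neurogenic precursors and ganglion cells, stood nearer the progenitors. It held 4.82 CPM on 10 UMIs in the control and 2.27 CPM on 6 UMIs in the mutant library. Photoreceptor-like cells held 1 and 0 UMIs and amacrine or horizontal-like cells 0 and 2, too few to place these neurons. The log2 ratio in progenitors was -1.03 (-1.79 to -0.36), from 55 and 26 UMIs, and -2.30 when CPM was averaged over cells. Markers of periocular mesenchyme, all 9 of which were detected in these progenitors, summed to 67.8 CPM in the control and 49.6 CPM in the mutant library, and their part in the Kitl difference was not tested. Melanocyte-like cells, which carry the receptor, held 5 Kitl UMIs in control and 0 in mutant, and all 4 control cells with Kitl also had Kit. RPE-like cells held 4 UMIs, 1.91 CPM (0.520 to 4.89) and 7 UMIs, 4.68 CPM (1.88 to 9.65), and the remaining classes lay at or below 6.20 CPM.

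Ednrb (chromosome 14, 103814625 to 103844402, minus strand), the endothelin receptor of the neural crest, was highest in the 2 crest-derived classes. Schwann or neural crest-like cells held 202 UMIs, 667 CPM (579 to 766), in 21 of 22 cells of the control, and 295 UMIs, 521 CPM (463 to 584), in 38 of 38 cells of the mutant library. Melanocyte-like cells held 357 UMIs, 415 CPM (373 to 460.0), in 37 of 43 cells, and 277 UMIs, 423 CPM (375 to 476), in 26 of 33 cells. The intervals of these classes were apart in the control library and overlapped in the mutant library. The libraries differed by a log2 ratio of -0.36 (-0.62 to -0.09) in Schwann or neural crest-like cells and 0.03 (-0.20 to 0.26) in melanocyte-like cells. Without the cell that held most Ednrb in each library, a cell of 26 UMIs in the control, the first of these became -0.22 (-0.49 to 0.07), with 0 inside the interval. Ednrb was among the leading genes of both clusters but was left out of the genes used to cluster.

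Ednrb was also found in 2 classes that are no neural crest pigment or glial cells. Endothelial-like cells held 132 UMIs, 73.2 CPM (61.2 to 86.8), in 49 of 144 cells of the control, and 133 UMIs, 73.9 CPM (61.8 to 87.5), in 50 of 149 cells of the mutant library, with a log2 ratio of 0.01 (-0.35 to 0.37). Macrophage-like cells held 110 UMIs, 62.0 CPM (51.0 to 74.8) and 128 UMIs, 72.0 CPM (60.1 to 85.7), with a log2 ratio of 0.21 (-0.16 to 0.60). Both classes were far above the 0.473 CPM and 0.487 CPM of red blood cell-like cells. Macrophage-like cells with mast cell markers held 0 Ednrb UMIs in both libraries, so that Kit and Ednrb marked different cells of that class, with 0 cells holding both. The 33 control and 30 mutant macrophage-like cells with Ednrb carried a median of 8 of 8 macrophage markers, against 5 in the other cells, and a median of 0 melanocyte and 0 Schwann or neural crest markers. Of 10 endothelial markers these cells carried a median of 1 among control cells and 0 among mutant cells, against 0 in the other macrophage-like cells of each library. In the mutant library 25.8% of these UMIs came from 1 cell of 33 UMIs. Macrophage-like cells ranged in depth from 516 to 97782 UMIs in the control and from 529 to 66519 in the mutant library. Detection of Ednrb and of markers both rise with depth. The depth of the cells with and without Ednrb was not compared, and the cells without it included those with mast cell markers. Endothelial-like cells held 0 UMIs of Pax3 and Sox10 in both libraries. All classes other than these 4 were at or below 3.13 CPM of Ednrb.

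**Figure D1:**
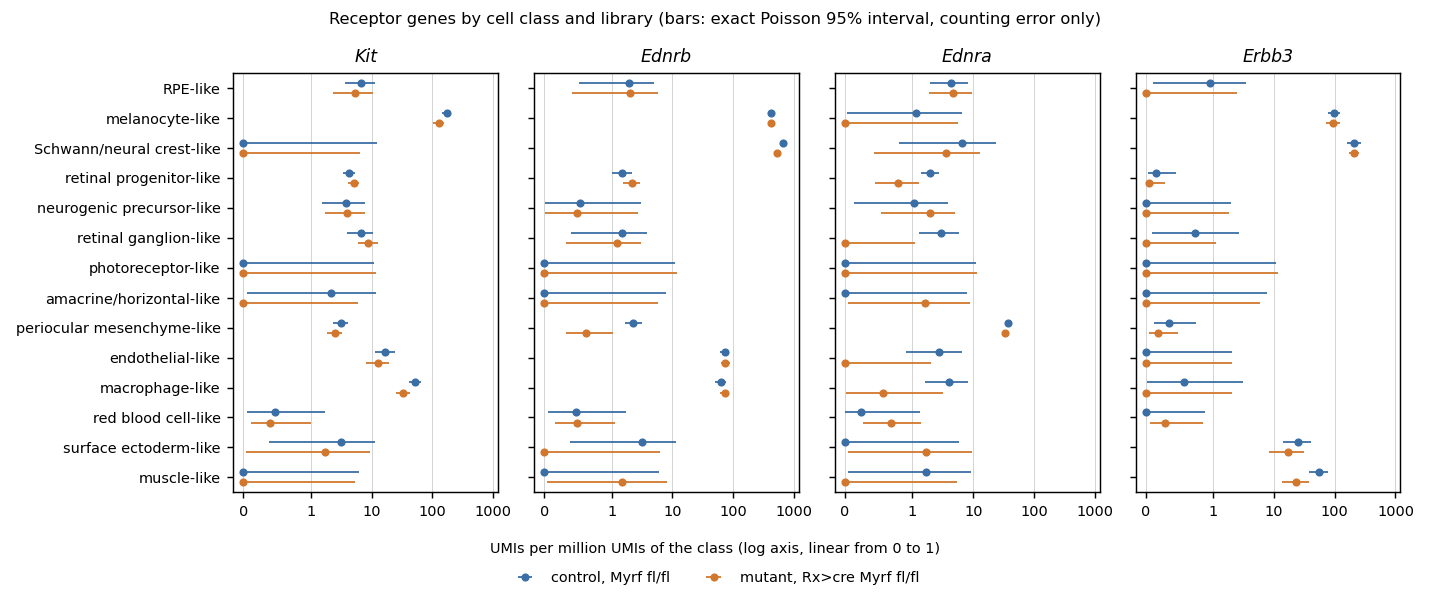
Levels of the 4 receptor genes in 14 cell classes of the control (blue) and mutant (orange) library, as CPM of the class on a log axis that is linear from 0 to 1, with exact Poisson 95% intervals that cover counting error only. Kit peaks in melanocyte-like cells, Ednrb and Erbb3 in Schwann or neural crest-like and melanocyte-like cells, and Ednra in periocular mesenchyme-like cells.

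**Figure D2:**
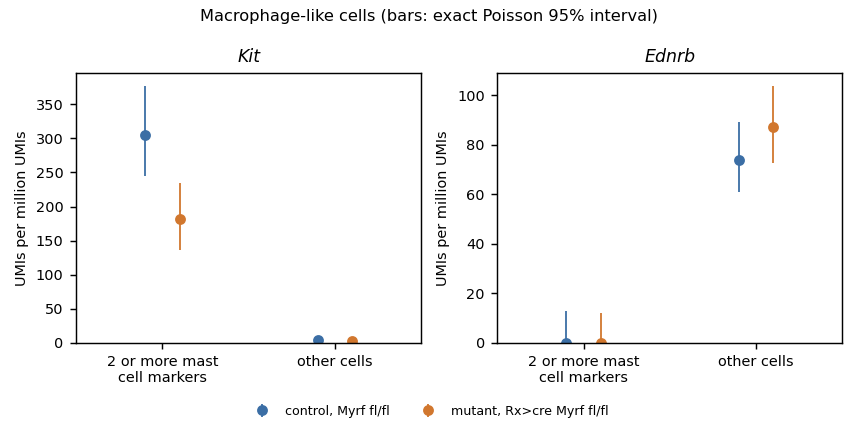
Kit (left) and Ednrb (right) in macrophage-like cells split by whether they carry at least 2 of 6 mast cell markers, as CPM with exact Poisson 95% intervals, in the control (blue) and mutant (orange) library. Kit is at 306 and 181 CPM in the cells with mast cell markers and at 3.36 and 2.04 CPM in the others, and Ednrb is at 0 in the former and at 73.9 and 87.2 CPM in the latter.

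In periocular mesenchyme-like cells Ednrb was scarce, at 40 UMIs, 2.28 CPM (1.63 to 3.10) in the control and 13 UMIs, 0.612 CPM (0.326 to 1.05) in the mutant library. The log2 ratio was -1.82 (-2.92 to -0.96), and -1.69 (-2.91 to -0.74) without the cell that held most of it in each library. A UMI was found in 19 of 1280 control and 10 of 1604 mutant cells, so some cells held several. Averaged over cells the log2 ratio was -0.60. Pax3 and Sox10, which mark neural crest pigment cells and glia, summed to 9 UMIs and 5 UMIs in these cells. Endothelial markers, all 10 of which were detected, summed to 77.5 and 62.0 CPM and the 8 Schwann or neural crest markers to 18.6 and 15.5 CPM. Their part in the difference was not tested.

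Ednra (chromosome 8, 77663031 to 77724464, minus strand), the other endothelin receptor, was a gene of the mesenchyme. Periocular mesenchyme-like cells held 668 UMIs, 38.0 CPM (35.2 to 41.0), in 482 of 1280 cells of the control, and 698 UMIs, 32.9 CPM (30.5 to 35.4), in 503 of 1604 cells of the mutant library. They held 73.5% and 79.1% of all its UMIs. Every other class was at or below 6.61 CPM, the value of Schwann or neural crest-like cells on 2 control UMIs. The log2 ratio in mesenchyme was -0.21 (-0.37 to -0.05). Melanocyte-like cells held 1 UMI in control and 0 in mutant, and the latter allows up to 4.58 CPM at 3 counts, so these cells carried Ednrb with almost no Ednra at this depth. Of the 482 control mesenchyme cells with Ednra, 10 also had Ednrb.

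In retinal progenitor-like cells Ednra held 38 UMIs, 1.96 CPM (1.39 to 2.70) in the control and 15 UMIs, 0.786 CPM (0.440 to 1.30) in the mutant library, with a log2 ratio of -1.27 (-2.29 to -0.42). Many of the control UMIs lay in cluster 2, led by Vax2os and Aldh1a1, where the values were 3.16 CPM (1.90 to 4.94) and 0.930 CPM (0.341 to 2.02). Retinal ganglion-like cells held 8 UMIs in control and 0 in mutant, which allows up to 0.904 CPM at 3 counts. Endothelial-like cells held 5 and 0 UMIs. The mesenchymal markers that moved with it in progenitors are those given for Kitl above, and their part was not tested here either.

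Edn3 (chromosome 2, 174760619 to 174784042, plus strand), the ligand that binds EDNRB on crest cells, had most of its UMIs in mesenchyme and, of the named classes as wholes, its highest level in muscle-like cells. Mesenchyme cluster 8, given further on, stood higher still in both libraries, at 59.0 CPM and 47.7 CPM. Unnamed cluster 17 did so in the control library only, at 61.2 CPM. These intervals overlapped those of muscle-like cells. Muscle-like cells, precursors of the eye muscles by their Myog and Myod1, held 20 UMIs, 33.1 CPM (20.2 to 51.0), in 10 of 25 cells of the control, and 28 UMIs, 40.8 CPM (27.1 to 59.0), in 16 of 29 cells of the mutant library. Periocular mesenchyme-like cells held 472 UMIs, 26.9 CPM (24.5 to 29.4), in 303 of 1280 cells, and 456 UMIs, 21.5 CPM (19.6 to 23.5), in 332 of 1604 cells. The intervals of the 2 classes overlapped in the control and were apart in the mutant library, and without the top cell of each library the mesenchyme held the higher control level. All 7 detected mesenchyme markers summed to 464 CPM in control muscle-like cells and all 9 to 415 CPM in those of the mutant library, against 3470 and 3508 CPM in mesenchyme. The log2 ratio was 0.28 (-0.58 to 1.21) in muscle-like cells and -0.32 (-0.51 to -0.13) in mesenchyme. Endothelial-like cells held 16 UMIs, 8.87 CPM (5.07 to 14.4) and 8 UMIs, 4.44 CPM (1.92 to 8.75). The 9 mesenchyme markers, all detected there, summed to 173 CPM in control and 57.8 CPM in mutant endothelial-like cells, and their part in these Edn3 values was not tested. Melanocyte-like and Schwann or neural crest-like cells, which carry the receptor, held 0 or 1 UMI of Edn3 in each library. The remaining classes lay at or below 10.2 CPM.

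Edn1 (chromosome 13, 42301476 to 42307990, plus strand), known as a peptide of epithelia and endothelium, was the scarcest of the 8 genes by UMIs, with 110 over all kept control cells and 94 over all mutant cells. Surface ectoderm-like cells, the outer epithelium, held 9 UMIs, 14.1 CPM (6.44 to 26.7) in the control and 17 UMIs, 28.9 CPM (16.9 to 46.3) in the mutant library. Endothelial-like cells held 10 UMIs, 5.55 CPM (2.66 to 10.2) and 3 UMIs, 1.67 CPM (0.344 to 4.87). Retinal progenitor-like cells held 78 UMIs, 4.03 CPM (3.19 to 5.03) and 65 UMIs, 3.41 CPM (2.63 to 4.34), which were 70.9% and 69.1% of all Edn1 UMIs. The ectoderm interval was apart from that of every other class in the mutant library only. The log2 ratio was 0.97 (-0.21 to 2.39) in ectoderm, and 2.85 when CPM was averaged over cells, many of which were shallow, with a median depth of 3223 UMIs in control cells and 1693.5 in mutant cells. It was -0.24 (-0.74 to 0.25) in the progenitors. Among the progenitors Edn1 lay mostly in cluster 2 at 5.16 CPM (3.51 to 7.32) and 6.35 CPM (4.56 to 8.62) and in cluster 5, led by Fgf15 and Sfrp2, at 4.71 CPM and 1.94 CPM, and the mitotic cluster 20 held 3.05 CPM and 3.44 CPM on 6 UMIs in each library. The log2 ratio was 0.29 (-0.41 to 1.02) in cluster 2 and -1.22 (-2.29 to -0.36) in cluster 5. RPE-like cells held 0 UMIs of Edn1 in both libraries, which allows up to 1.43 CPM and 2.01 CPM at 3 counts, and the remaining classes lay at or below 2.12 CPM.

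Erbb3 (chromosome 10, 128567523 to 128589652, minus strand), the neuregulin receptor of the glial lineage, was ordered as Schwann or neural crest-like, melanocyte-like, muscle-like and surface ectoderm-like cells in both libraries. Schwann or neural crest-like cells held 63 UMIs, 208 CPM (160.0 to 266), in 18 of 22 cells of the control, and 117 UMIs, 207 CPM (171 to 248), in 34 of 38 cells of the mutant library. Melanocyte-like cells held 85 UMIs, 98.7 CPM (78.9 to 122), in 32 of 43 cells, and 62 UMIs, 94.7 CPM (72.6 to 121), in 20 of 33 cells. The intervals of these 2 classes were apart from each other and from those of all further classes in both libraries, whereas muscle-like and surface ectoderm-like cells overlapped in both. Its log2 ratio was -0.02 (-0.46 to 0.46) in the glial class and -0.05 (-0.56 to 0.43) in the pigment class. Muscle-like cells held 33 UMIs, 54.5 CPM (37.5 to 76.6), in 14 of 25 cells of the control, and 16 UMIs, 23.3 CPM (13.3 to 37.9), in 9 of 29 cells of the mutant library, with a log2 ratio of -1.18 (-2.19 to -0.32). Surface ectoderm-like cells held 16 UMIs and 10 UMIs. All other classes were at or below 0.955 CPM, and endothelial-like cells held 0 UMIs in both libraries. Schwann or neural crest markers, of which 3 of 8 were detected in control cells and 4 in mutant cells, summed to 31.4 CPM in control and 16.0 CPM in mutant muscle-like cells, and their part in the muscle difference was not tested.

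Nrg1 (chromosome 8, 31814551 to 32884029, minus strand), the ERBB3 ligand, was a low-level gene of the neural retina. Retinal progenitor-like cells held 158 UMIs, 8.17 CPM (6.95 to 9.55), in 140 of 1630 cells of the control, and 140 UMIs, 7.34 CPM (6.18 to 8.66), in 128 of 1723 cells of the mutant library. Retinal ganglion-like cells held 22 UMIs, 8.10 CPM (5.08 to 12.3) and 27 UMIs, 8.14 CPM (5.36 to 11.8), and the order of these 2 classes was not settled in either library. Its log2 ratio was -0.15 (-0.49 to 0.18) in progenitors, and in ganglion cells its interval ran from -0.86 to 0.89. Neurogenic retinal precursor-like cells, which lie between them in development, stood at 2.14 CPM (0.583 to 5.48) and 0.491 CPM (0.0124 to 2.73), below the progenitors in both libraries and below the ganglion cells in the mutant library, beyond overlap of the intervals. Periocular mesenchyme-like cells held 16 UMIs, 0.911 CPM (0.521 to 1.48) and 31 UMIs, 1.46 CPM (0.992 to 2.07), with a log2 ratio of 0.64 (-0.23 to 1.65). In Schwann or neural crest-like cells, where the receptor was highest, Nrg1 had 0 UMIs in both libraries. The remaining classes lay at or below 4.23 CPM.

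**Figure D3:**
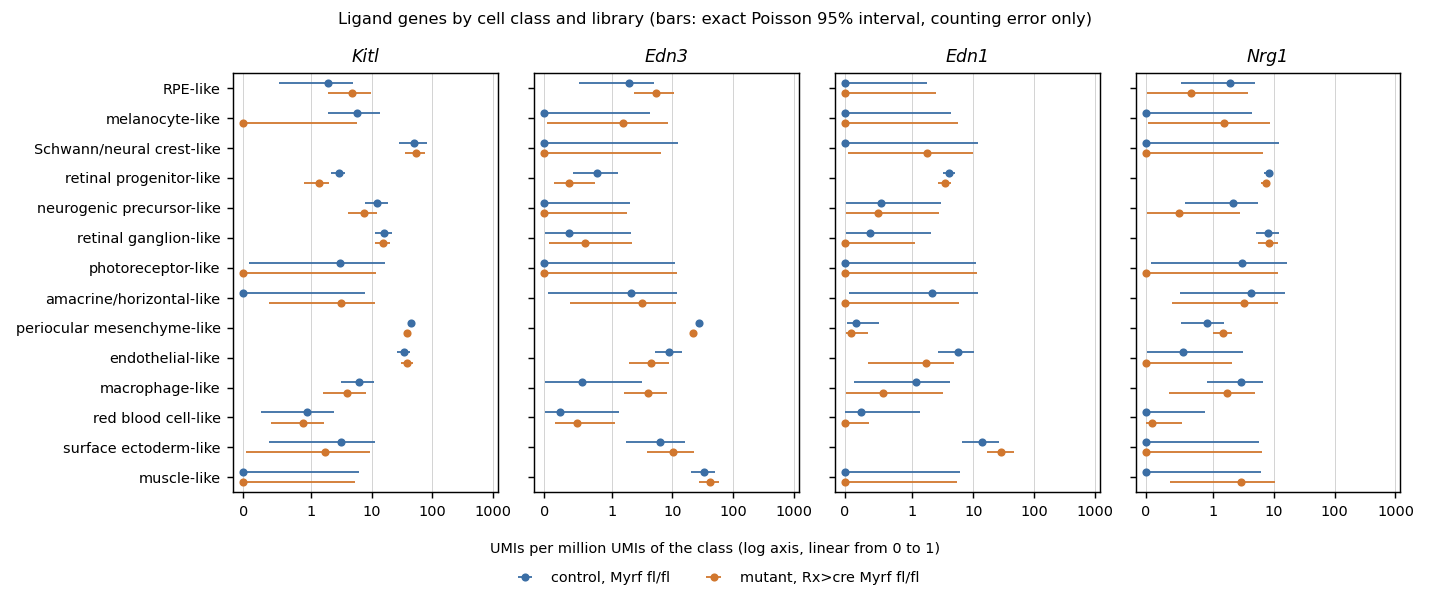
Levels of the 4 ligand genes in 14 cell classes of the control (blue) and mutant (orange) library, as CPM of the class on a log axis that is linear from 0 to 1, with exact Poisson 95% intervals that cover counting error only. Kitl is highest in Schwann or neural crest-like, periocular mesenchyme-like and endothelial-like cells, and Edn3 in muscle-like and periocular mesenchyme-like cells. Edn1 is highest in surface ectoderm-like cells, while lower levels in retinal progenitor-like cells make up 70.9% of its control and 69.1% of its mutant UMIs. Nrg1 is highest in retinal progenitor-like and retinal ganglion-like cells, at 7.34 to 8.17 CPM.

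Receptors were found together in the same cells. In melanocyte-like cells 32 of 43 control and 22 of 33 mutant cells had both Kit and Ednrb, and 29 and 17 had both Kit and Erbb3. In Schwann or neural crest-like cells 18 of 22 control and 34 of 38 mutant cells had both Ednrb and Erbb3, and 0 had Kit. The ligands overlapped in the mesenchyme. Of 1280 control periocular mesenchyme-like cells, 425 had Kitl, 303 had Edn3 and 130 had both, and of 1604 mutant cells 497, 332 and 125 did. Ednra and Edn3 were both found in 115 control and 89 mutant cells of that class. These are counts of cells with at least 1 UMI, so they rise with depth, and the median depth of the class was 13227.5 UMIs for control cells and 12374.5 for mutant cells. Of the 43 control melanocyte-like cells 34 had Kit and 37 had Ednrb, so most had to hold both. No number expected from the single-gene counts was computed, and the overlaps show no link between genes.

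The mesenchyme was not uniform for the ligands. Its 5 named clusters were led by Nbl1 and Tfap2b (cluster 3), by mitotic genes such as Spc24 and Birc5 (cluster 4), by Pgf and Nrp2 (cluster 8), by Col9a3 and Cldn11 (cluster 11) and by Osr2 and Foxl2 (cluster 19). Edn3 was highest in cluster 8, at 59.0 CPM (50.3 to 68.6) in the control and 47.7 CPM (40.6 to 55.6) in the mutant library, and Kitl was highest in cluster 11, at 69.3 CPM (59.4 to 80.2) and 60.4 CPM (51.6 to 70.3). Ednra was highest in cluster 3, at 62.1 CPM (55.2 to 69.6) and 53.4 CPM (47.8 to 59.3). In each case the interval lay above those of the other 4 named clusters in both libraries. The shares of the mesenchyme-like cells in each cluster differed between libraries by at most 3.22 percentage points.

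Ratios between libraries were also computed for each mesenchyme cluster. Kitl in cluster 19 was 23.8 CPM (16.8 to 32.7) in the control and 9.28 CPM (5.30 to 15.1) in the mutant library, a log2 ratio of -1.31 (-2.30 to -0.48) on 38 UMIs and 16 UMIs, against 0.05 (-0.22 to 0.33) in cluster 3. Edn3 in cluster 4 was 28.0 CPM and 18.0 CPM, a log2 ratio of -0.63 (-0.99 to -0.29), against 0.12 (-0.48 to 0.73) in cluster 11. The intervals of the 2 Kitl ratios were apart, and those of the 2 Edn3 ratios overlapped. Ednra had log2 ratios between -0.44 (-0.93 to 0.04) in cluster 8 and 0.02 (-0.63 to 0.68) in cluster 19, also with overlapping intervals. The scarcer receptors gave larger ratios on few UMIs. Ednrb stood at -3.13 (-9.44 to -1.26) in cluster 3 on 12 and 1 UMIs, with most of the control UMIs in 1 cell, and at -1.18 (-2.44 to -0.14) in cluster 4 on 22 and 11 UMIs. Kit stood at -1.12 (-2.54 to 0.06) in cluster 8 on 17 and 9 UMIs.

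Unnamed cluster 17, led by Fmo1, Spp1 and Lypd1 and scored almost alike for periocular mesenchyme and pericytes, held the highest Kitl of any cluster. It stood at 127 CPM (111 to 144) on 238 UMIs in the control and at 93.2 CPM (80.3 to 108) on 184 UMIs in the mutant library. Edn3 was 61.2 CPM (50.5 to 73.4) and 36.0 CPM (28.1 to 45.4) there, and Ednra 40.4 CPM (31.9 to 50.6) and 35.0 CPM (27.2 to 44.2). The log2 ratios were -0.44 (-0.73 to -0.16) for Kitl, -0.76 (-1.21 to -0.33) for Edn3 and -0.21 (-0.70 to 0.28) for Ednra. Counted with the periocular mesenchyme-like cells, cluster 17 made them the leading class of Kitl by control CPM, the level by which leading classes were set. In the mutant library they stayed below the 53.0 CPM of Schwann or neural crest-like cells.

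**Figure D4:**
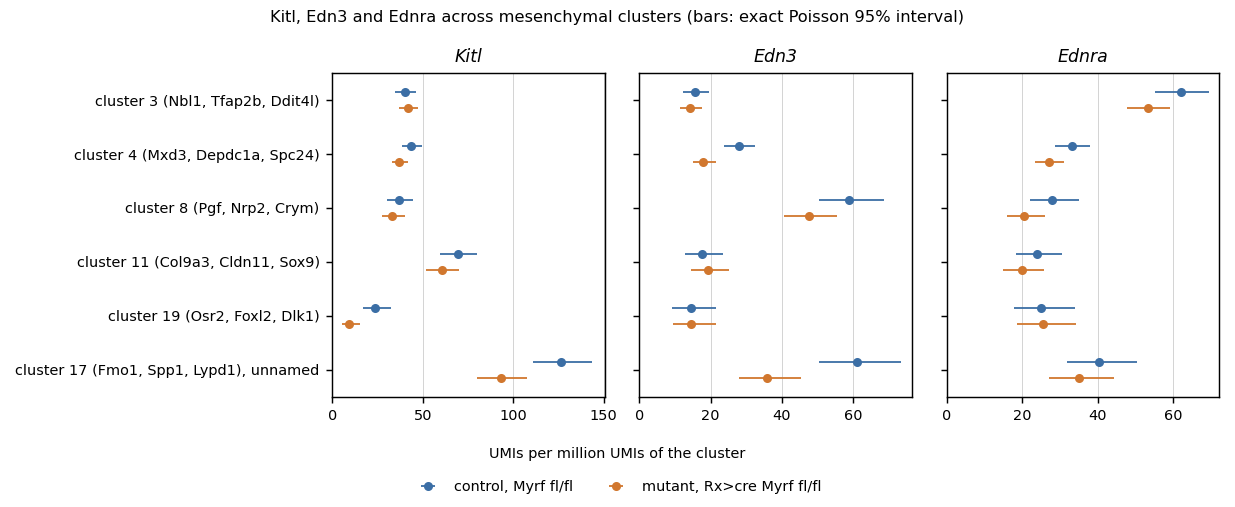
Kitl, Edn3 and Ednra in the 5 named periocular mesenchyme-like clusters and in unnamed cluster 17, each labelled with 3 leading genes, as CPM of the cluster with exact Poisson 95% intervals, in the control (blue) and mutant (orange) library. Kitl peaks in cluster 17 and then cluster 11, Edn3 in clusters 8 and 17, and Ednra in cluster 3.

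Over all 8 genes and 14 classes, 34 pairs of gene and class held at least 20 UMIs over both libraries. Of these, 4 passed a log2 ratio of 1 in size, all lower in the mutant library, 10 had an interval that did not hold 0, and 23 were lower and 11 higher. Most genes were lower in every class compared, since the share of all genes that were higher ran from 38.7% in periocular mesenchyme-like to 47.4% in melanocyte-like cells. The share of all genes with an interval that did not hold 0 was not computed. In retinal progenitor-like cells 2 of 7 pairs passed (Kitl and Ednra), where 1.33% of all genes with enough UMIs did. In periocular mesenchyme-like cells 1 of 6 passed (Ednrb), beside 1.65% of all genes, and in muscle-like cells 1 of 2 (Erbb3), beside 5.28%. No pair passed in the other 8 classes. There the share of all genes that passed was 5.06% in RPE-like, 4.04% in melanocyte-like, 5.3% in Schwann or neural crest-like, 2.41% in neurogenic retinal precursor-like, 1.85% in retinal ganglion-like, 2.84% in endothelial-like, 4.29% in macrophage-like and 5.19% in surface ectoderm-like cells. The median log2 ratio of the 6 pairs in mesenchyme was -0.25, and that of all 13405 genes compared there was -0.04, of which 38.7% were higher. In progenitors these medians were -0.24 over 7 pairs and -0.02 over 12885 genes. Over the alternatives tried, the ratio lay between -2.30 and -0.78 for Kitl in progenitors and between -1.44 and -0.94 for Ednra in progenitors. It lay between -2.25 and -0.60 for Ednrb in mesenchyme and between -1.28 and -1.14 for Erbb3 in muscle-like cells. The last stayed past 1 in size and the others did not under every alternative. Muscle-like cells stayed at 25 and 29 cells under most alternatives, so the Erbb3 range could hardly move and is no measure of stability. With 1 to 7 pairs in a class, these counts describe the genes and set nothing apart from the rest of the transcriptome.

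**Figure D5:**
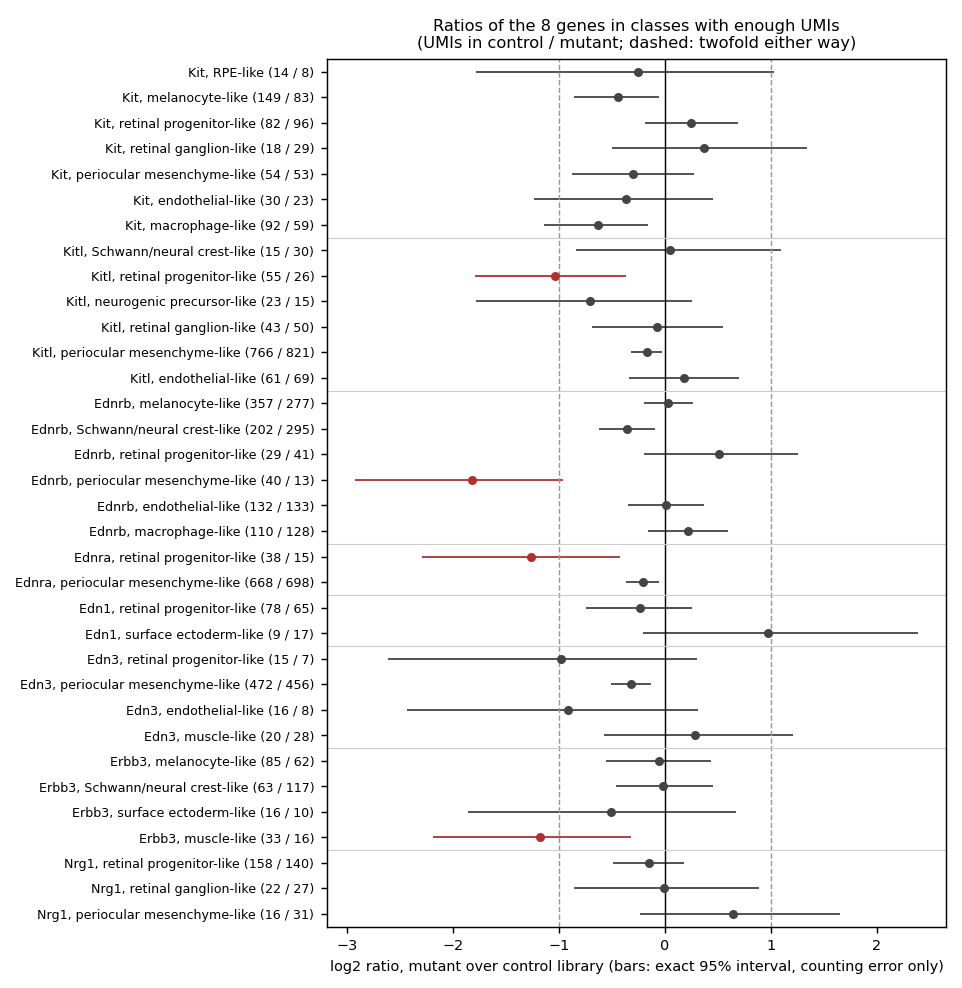
Log2 ratio of mutant over control library for the 34 pairs of gene and class with at least 20 UMIs over both libraries, computed with 1 UMI added to each sum. Bars are exact conditional binomial 95% intervals without that addition, which cover counting error only; the UMIs of the control and mutant library stand in brackets, dashed lines mark a log2 ratio of 1 in size, and the 4 pairs past it are red, all below -1.

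Over all kept cells the 8 genes had log2 ratios from -0.20 for Nrg1 to -0.53 for Kit, and the interval held 0 for Erbb3 and Nrg1 only. Of all 16080 genes with at least 20 UMIs, 82.3% were lower in the same sums, with a median log2 ratio of -0.13. Red blood cell-like cells held 6.87% of all UMIs of the control and 14.0% of those of the mutant library. These sums mix the level within a class with the share of the class among the cells. Melanocyte-like cells, which held 30.8% of all Kit UMIs of the control and 20.9% of those of the mutant library, were 0.786% and 0.524% of the kept cells. Schwann or neural crest-like cells were 0.402% and 0.603%, and held 29.3% of the Erbb3 UMIs of the control and 53.4% of those of the mutant library.

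The 48 other genes of these pathways gave 242 pairs of gene and class with at least 20 UMIs in the 11 classes named above, of which 9 (3.72%) passed a log2 ratio of 1 in size, beside 3.19% of 95589 pairs over all genes. Higher in the mutant library were Hbegf, an EGF family ligand, in RPE-like cells, Etv1, an ETS factor, in neurogenic retinal precursor-like cells, the adaptors Gab2 and Sos1 in macrophage-like cells, and Erbb2, the signalling partner of ERBB3, in surface ectoderm-like cells. Lower were the ERK pathway inhibitors Spry1 and Spred2 in retinal ganglion-like cells, and Egf and Rgs4 in periocular mesenchyme-like cells. No gene of the lists passed in melanocyte-like, Schwann or neural crest-like, retinal progenitor-like, endothelial-like or muscle-like cells.

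Hbegf in RPE-like cells had 4 UMIs (1.91 CPM) in the control and 20 UMIs (13.4 CPM) in the mutant library, a log2 ratio of 2.56 (1.23 to 4.82). Gab2 in macrophage-like cells had 3 UMIs (1.69 CPM) in the control and 23 UMIs (12.9 CPM) in the mutant library, a log2 ratio of 2.58 (1.21 to 5.31). Both ratios rest on few UMIs in the control library. Erbb2 in surface ectoderm-like cells had 11 UMIs (17.2 CPM) in the control and 23 UMIs (39.2 CPM) in the mutant library, with a log2 ratio of 1.12 (0.09 to 2.37). Spry1 in retinal ganglion-like cells had 21 UMIs (7.73 CPM) in the control and 11 UMIs (3.32 CPM) in the mutant library, with a log2 ratio of -1.16 (-2.42 to -0.10). Spred2 there had 22 UMIs (8.10 CPM) in the control and 10 UMIs (3.01 CPM) in the mutant library, with a log2 ratio of -1.35 (-2.67 to -0.29). Sos1 in macrophage-like cells had 6 UMIs (3.38 CPM) in the control and 14 UMIs (7.88 CPM) in the mutant library, with a log2 ratio of 1.10 (-0.25 to 2.89). Etv1 in neurogenic retinal precursor-like cells had 7 UMIs (3.75 CPM) in the control and 17 UMIs (8.34 CPM) in the mutant library, with a log2 ratio of 1.04 (-0.19 to 2.67). In periocular mesenchyme-like cells Egf had 16 UMIs (0.911 CPM) in the control and 7 UMIs (0.330 CPM) in the mutant library, with a log2 ratio of -1.36 (-2.99 to -0.10), and Rgs4 had 17 UMIs (0.968 CPM) in the control and 8 UMIs (0.377 CPM) in the mutant library, with a log2 ratio of -1.27 (-2.78 to -0.07). At a minimum of 50 UMIs 0 of 153 pairs of the lists passed.

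The other genes of each pathway were found where the named receptors or ligands were, or in other classes. Of the endothelin list, Ece1, an endothelin-converting enzyme, was highest in endothelial-like cells, with 154 UMIs (85.4 CPM) in the control and 104 UMIs (57.8 CPM) in the mutant library, a log2 ratio of -0.56 (-0.94 to -0.20). Mme, a peptidase that degrades such peptides, was highest in surface ectoderm-like cells, at 68.8 CPM in the control and 61.3 CPM in the mutant library, and Edn2 had 1 UMI over all kept control cells. Of the neuregulin list, Egfr was highest in periocular mesenchyme-like cells of the control library, with 654 UMIs (37.2 CPM) in the control and 744 UMIs (35.0 CPM) in the mutant library. Erbb2 was highest in Schwann or neural crest-like cells of the control library only, with 12 UMIs (39.6 CPM) in the control and 12 UMIs (21.2 CPM) in the mutant library. Of the ERK feedback list, Etv1 was highest in melanocyte-like cells, with 40 UMIs (46.5 CPM) in the control and 39 UMIs (59.6 CPM) in the mutant library. Gna11, a G protein subunit that couples to endothelin receptors, was highest in endothelial-like cells, with 258 UMIs (143 CPM) in the control and 245 UMIs (136 CPM) in the mutant library, and Plcb4, a phospholipase downstream of it, in melanocyte-like cells, with 34 UMIs (39.5 CPM) in the control and 35 UMIs (53.5 CPM) in the mutant library. Of the Kit list, Grb2, an adaptor, was highest in macrophage-like cells, with 311 UMIs (175 CPM) in the control and 315 UMIs (177 CPM) in the mutant library.

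By Pearson correlation of log2(CPM + 10) over 28 points (14 classes in each of 2 libraries, so that points share a library and its free RNA), the genes most like each of the 8 among 13435 were named as a description. For Kit these were Arhgap6 (r = 0.89), Nfatc2 and Atxn7l1, and for Kitl they included Nrp1 (r = 0.83) and Cmbl. Ednrb was most like Tmc6 (r = 0.96), Rasa3 and Pros1, and Ednra most like Cldn11 (r = 0.97), Osr1 and Emx2. Edn1 was most like Wnt7b (r = 0.92), Calml3 and Cldn7, and Edn3 most like Pitx1 (r = 0.94), Wisp1 and Parm1. Erbb3 was most like Stard13 (r = 0.91), Megf10 and Scrg1, and Nrg1 most like Sybu (r = 0.84), Cgref1 and Dpf1.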

How the data were processed

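Eye cups of e13.5 mice were dissociated and 3 samples pooled per library, giving 1 single-cell 3' gene expression library per genotype. Per the labels, reads were processed with Cell Ranger 7.1.0 on mm10, and Seurat 4.1.1 was used later; whether intronic reads were counted is not given in the sources used here. The deposited values are raw UMI counts per gene and barcode, as the authors' filtered matrices, with no columns of other samples.

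Barcodes were kept at 200 or more genes and at most 15% of UMIs from mitochondrial genes, and doublets were called by Scrublet (scanpy 1.11.5, expected rate 5%), which marked 51 control and 74 mutant cells. Cells of both libraries were integrated in Seurat 5.3.0 (R 4.3.3) on 1990 variable features, 30 dimensions and resolution 0.8. The 8 genes and the pathway lists were left out of those features. Clusters were named by mean marker scores of at least 0.85 with a margin of 0.25 and at least 3 detected markers, thresholds set after the clusters had been seen. UMIs were summed per class and library, as CPM with exact Poisson intervals. Shares have Clopper-Pearson intervals, and ratios (1 UMI added) exact conditional binomial ones (scipy 1.17.1). Pairs needed 20 UMIs over both libraries, and a class 20 cells in each. The named genes were all 8 genes, pathway genes past a log2 ratio of 1 or with high levels in a class, and the 3 most alike genes, of which 1 is not reported here. The 8 genes and all lists were chosen with earlier results of these data known. No p-value was computed, since each genotype was 1 library. Counting scripts were tested on simulated data. Alternatives were no doublet removal, upper limits of 2000 (the limit in the study's methods) and 20000 UMIs, a mitochondrial limit of 5%, resolutions of 0.4 and 1.6, no integration, all variable features, a class rule per cell, CPM without abundant gene families, means over cells, thinning to 1500 and 6000 UMIs, and other pathway limits. Chosen after the data were seen were the removal of shared barcodes, of the top cell and of cells with mast cell markers, and counting cluster 17 as mesenchyme. The control library held a median of 10083 and the mutant library a median of 10638 UMIs per barcode. UMI intervals cover counting error only.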

Additional observations from a re-analysis of the deposited data

How the results depend on the processing

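Of 105 recomputed log2 ratios in the leading classes, 101 stayed inside the interval of the reported value and 4 did not, of which Nrg1 and Edn3 below changed sign. Many of the 105 could hardly move, because most alternatives left the small classes at the same size. Schwann or neural crest-like cells stayed at 22 and 38 cells and muscle-like cells at 25 and 29 under most of them. The count of 101 is thus no measure of stability. With an upper limit of 2000 UMIs per cell, Schwann or neural crest-like, melanocyte-like and muscle-like cells formed no class, 0 of 8 genes kept their leading class, 0 pairs of gene and class could be compared (0 past the fold), and Nrg1 in retinal progenitor-like cells stood at 1.91 on 1 control and 6 mutant UMIs. With a limit of 20000 UMIs, 3 genes kept their leading class and Edn3 in the class then named muscle-like stood at -1.21 on 11 and 3 UMIs. That class held 609 control and 468 mutant cells, against 25 and 29 in the report, so it was no longer the same cells. At 20000 UMIs, Schwann or neural crest-like cells (19 and 29) and melanocyte-like cells (20 and 14) also fell under the minimum of 20 cells in a library. With a mitochondrial limit of 5%, 5 genes kept their leading class. Schwann or neural crest-like cells, the leading class of Kitl, Ednrb and Erbb3, had 18 and 18 cells there, under the same minimum. Averaged over cells, Kit in melanocyte-like cells stood at -1.03 (247 and 121 CPM) and Edn1 in surface ectoderm-like cells at 2.85 (9.44 and 67.9 CPM). Among pathway pairs, 0 passed at a minimum of 50 UMIs, and 32 of 242 (13.2%, beside 12.5% of all genes) at the smaller log2 ratio tried. The cause of these changes was not tested, apart from the classes that lost or changed their cells. Nrg1 had its highest level in retinal ganglion-like cells at resolution 1.6, averaged over cells and without the shared barcodes. CPM moved beyond the counting interval for 29 of 214 values, and shares of cells with a UMI did for 18 of 32 at other thinning depths. No paired analysis was possible because each genotype was 1 library. Cell number (22 to 43 cells) limits the crest-derived and muscle-like classes, and shallow cells limit surface ectoderm-like and RPE-like cells.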

Other observations

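Unnamed cluster 9, led by Meox1, Scx and Msc, genes known from tendon and muscle connective tissue, held Ednra at 31.7 CPM on 72 UMIs in the control and at 19.3 CPM on 70 UMIs in the mutant library, a log2 ratio of -0.72 (-1.21 to -0.22). Edn3 there stood at 7.92 CPM on 18 UMIs and 11.3 CPM on 41 UMIs, with a log2 ratio of 0.47 (-0.32 to 1.40), and Kit at 8.80 CPM and 4.96 CPM on 20 and 18 UMIs. Unnamed cluster 13, led by Gal, Btbd17 and Atoh7, genes of newly formed retinal neurons, held Kitl at 4.82 CPM on 10 UMIs in the control and at 2.27 CPM on 6 UMIs in the mutant library. Unnamed cluster 0 was shallow, with a median depth of 686 UMIs for control cells and 696.5 for mutant cells, and held at most 18 UMIs of any of the 8 genes in a library. Cluster 23, which held most of the shared barcodes, had at most 2 UMIs of any of them.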
